A study of Mus musculus with 8 samples.

Results

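N6-methyladenosine (m6A) peaks whose summits lay in the 5′ untranslated region (5′ UTR) of an mRNA, the stretch between the start of the transcript and the start codon, are described here in mouse primary vascular smooth muscle cells (VSMCs). A summit, the position of highest signal in a peak, was counted if it fell in the 5′ UTR of the complete coding transcript with the longest coding sequence of exactly 1 gene (GENCODE M21 annotation, genome build GRCm38), and the peak intervals of such summits were merged over the lists wherever they shared 1 bp. This gave 329 regions (5′ UTR peaks hereafter) in 317 genes, built from 893 of the 42744 summits in 4 peak lists. They had a median width of 292 bp (range, 97–2890 bp). The rest of the lists gave 5511 regions in coding sequence and 3175 in 3′ UTRs, and 12612 regions over all transcript parts.

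The cells were grown out of descending aortas of C57BL/6J mice aged 8–12 weeks, were used at passages 5–7, and were infected with lentivirus for 24 hours and collected 48 hours after fresh medium was added. The virus expressed either a nontargeting short hairpin RNA against a plant microRNA sequence (shCTR) or one against Mettl14 (shMettl14), and there were 2 samples of each, lettered A and B. Fragments of total RNA about 200 nt long were pulled down with an anti-m6A antibody, and the authors called peaks in each pulldown against its own input. The sources used here do not say whether A and B came from separate animals, so the p-values measure the spread between these lists, which may be technical. The lists held 11158 (shCTR A), 8655 (shCTR B), 13675 (shMettl14 A) and 9256 (shMettl14 B) summits. Peak lists do not measure transcript level, so neither the knockdown nor the cell type could be checked on expression, and fewer transcripts and less methylation per transcript cannot be told apart where a peak is missing. Neither Mettl14 nor Mettl3 had an exonic summit in any list. An exonic summit was present in 6 of 16 contractile smooth muscle genes (Myh11, Srf, Cald1, Lmod1, Synpo2 and Vcl, but not Acta2, Tagln or Cnn1), in 3 of 7 endothelial markers (Pecam1, Cdh5 and Kdr) and in 1 of 6 leukocyte markers.

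METTL14 and METTL3 form the core of the enzyme complex that writes m6A into RNA, mostly within the DRACH sequence (where D stands for any base but C, R for a purine, and H for any base but G). Most m6A lies in coding sequence and 3′ UTRs around the stop codon, and a smaller part lies in 5′ UTRs, where the ribosome's small subunit is loaded and scans for the start codon. Antibodies against m6A also bind m6Am, a cap-adjacent nucleotide that a different enzyme (PCIF1) methylates, so a peak at the extreme 5′ end can hold either mark.

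The sequences below are the 21 nt around the DRACH nearest to the summit, read in the direction of the mRNA and written as DNA, with the DRACH letters in capitals. The first 4 come from the 10 peaks with the highest mean percentile of enrichment among the 5′ UTR peaks found in all 4 lists. The next pair belongs to signalling and immediate early genes, and the last 3 to peaks that had a 5′ UTR summit in the lists of 1 shRNA only.
St3gal2: agatggacTGACCtctgcctt
Ddx6: ttctctacTGACTttgaaaag
Foxc1: cgcggccgGGACAgacgcagc
Dhx32: tgaacggaGGACTggactgtg
Irs1: cctacatcGGACTcgaccagg
Fosb: cagagcctGGACTttcaggag
Angptl2: cactgcaaGGACCatgaggcc
Fam198b: cagagaaaTGACCtgtccaga
Klf4: atacaaagGAACTtttttaaa
On GRCm38 these windows lie at chr8:110957405-110957425 on the plus strand (St3gal2), chr9:44607333-44607353 on the plus strand (Ddx6), chr13:31807065-31807085 on the plus strand (Foxc1), chr7:133759716-133759736 on the minus strand (Dhx32), chr1:82290813-82290833 on the minus strand (Irs1), chr7:19309647-19309667 on the minus strand (Fosb), chr2:33228203-33228223 on the plus strand (Angptl2, exon 2), chr3:79886220-79886240 on the plus strand (Fam198b) and chr4:55532036-55532056 on the minus strand (Klf4). The central A lies in the 5′ UTR in all but Fam198b, where the motif runs across the start codon and its A is the first base after it. In Angptl2 the motif ends directly before the atg of the start codon. Over the 329 peaks, the A of the nearest DRACH lay a median of 12 nt from the median summit, within 10 nt in 146 peaks and within 50 nt in 306.

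The motif was looked for around every 5′ UTR summit in turn (within 50 nt, on the strand of the mRNA). DRACH was found near 92.8% (shCTR A), 94.6% (shCTR B), 93.5% (shMettl14 A) and 95.4% (shMettl14 B) of 5′ UTR summits. The corresponding shares for coding summits were 95.6%, 95.7%, 94.7% and 95.6%, so the 5′ UTR value was lower in 4 of 4 lists (difference, −1.31 ± 1.03 percentage points, SD, n = 4 lists, exact sign-flip permutation test, two-sided, p = 0.125, which is the smallest p that 4 lists allow). Set against all positions of the same 5′ UTRs (81.8%, 82.2%, 82.6% and 82.0%), the share at summits was higher in every list, by 11.9 ± 1.21 points (p = 0.125, exact). Over all positions of all 5′ UTRs of the annotation, 77.1% had a DRACH within that distance.
The single word GGACT, one of the DRACH words, showed a different order. It stood near 28.7%, 31.2%, 26.6% and 30.1% of 5′ UTR summits in shCTR A, shCTR B, shMettl14 A and shMettl14 B, and near 20.2%, 21.6%, 18.2% and 20.5% of coding summits. The excess over coding summits was 9.03 ± 0.69 points, present in 4 of 4 lists (exact sign-flip permutation test, p = 0.125). Over 3′ UTR summits (25.2%, 27.6%, 22.2% and 25.1%), which also lay above the coding ones, the excess was smaller at 4.10 ± 0.69 points, again in 4 of 4 lists (exact sign-flip permutation test, p = 0.125). All positions of the same 5′ UTRs had GGACT nearby in 15.9–17.3% of cases, and those of all annotated 5′ UTRs in 11.2%. Between the shRNA groups the GGACT share was 30.0% ± 1.79 in shCTR and 28.3% ± 2.43 in shMettl14 (SD, n = 2 lists each), a difference within the spread of the lists (exact permutation test, two-sided, p = 0.667, where 2 lists against 2 cannot go below 0.333). Of the sequences printed above, Dhx32, Irs1 and Fosb carry GGACT as the nearest DRACH, and St3gal2 carries it overlapping the capitals.

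**Figure D1:**
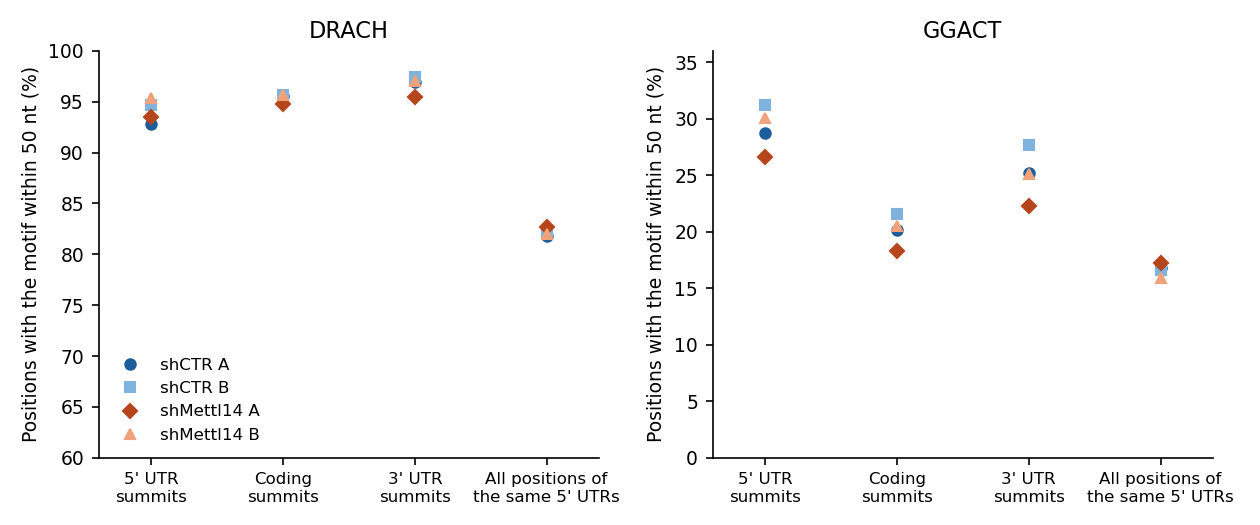
Percentage of positions with DRACH (left, axis from 60%) or GGACT (right, axis from 0) within 50 nt, for 5′ UTR, coding and 3′ UTR summits and for all positions of the 5′ UTRs that hold a summit, with 1 point per peak list. For GGACT, the 5′ UTR summits (26.6–31.2%) sit above the coding summits (18.2–21.6%) in every list, with the 3′ UTR summits (22.2–27.6%) in between.

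Within the 5′ UTR, summits lay toward the start codon rather than the transcript start. The median summit was 401–453 nt from the start of the transcript and 174–180 nt from the start codon over the 4 lists. Summits within 100 nt of the transcript start made up 5.49% (shCTR A), 9.27% (shCTR B), 6.83% (shMettl14 A) and 6.36% (shMettl14 B), while 17.9–19.7% of the length of the same 5′ UTRs lies there. They were thus fewer than an even spread would give in 4 of 4 lists (difference, −11.9 ± 1.12 points, SD, n = 4 lists; exact sign-flip permutation test, p = 0.125). The 100 nt before the start codon held 33.3%, 33.2%, 33.8% and 33.5% of summits, 14.6 ± 0.909 points above an even spread (4 of 4 lists, p = 0.125, exact). Both shRNA groups showed this layout: the share near the transcript start was 7.38% ± 2.68 in shCTR and 6.60% ± 0.337 in shMettl14 (SD, n = 2; exact permutation test, p = 1), and its difference, −0.780 points, became 1.11 points without shCTR B. The share near the start codon was 33.3% ± 0.115 against 33.7% ± 0.203 (exact permutation test, p = 0.333, the smallest possible). An even spread takes no account of fragments about 200 nt long at the transcript's end or of annotated starts that went unused. Nor does it allow for the 51.1% of 5′ UTR peaks that reached across the start codon. The parts of these in the layout were not tested.
An mRNA that is capped on an A can carry m6Am. Of the 41 genes with a 5′ UTR summit within 100 nt of the transcript start, 12.2% had an annotated first base of A, compared with 22.5% of the 276 genes whose summits all lay farther away and 28.7% of 20390 coding transcripts with a 5′ UTR. The annotated start may not be the one these cells used.

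Summits were also fewer near exon junctions. Within 100 nt of a junction lay 8.02%, 7.32%, 11.5% and 5.78% of the 5′ UTR summits of shCTR A, shCTR B, shMettl14 A and shMettl14 B. The positions of the same 5′ UTRs lie that close in 16.7–17.9% of cases, so the difference was −9.05 ± 1.92 points and of the same sign in 4 of 4 lists (exact sign-flip permutation test, p = 0.125). Peaks were called along the genome, where a fragment across a junction is split, and the part of this was not tested. Exon 1 held 63.4–65.8% of summits and 70.3–72.4% of the 5′ UTR positions, a difference of −7.47 ± 0.959 points in the same direction in every list (p = 0.125, exact). The exon under a summit had a median length of 979–1143 nt, which was not distinguishable from that over all positions of these 5′ UTRs (mean difference −20.5 ± 27.6 nt, p = 0.375, exact).

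The genes with a 5′ UTR peak had long 5′ UTRs, with a median of 554 nt against 154 nt over 21495 coding transcripts and 199 nt over the 4823 genes that had a coding or 3′ UTR summit and no 5′ UTR peak. Among genes with a coding or 3′ UTR summit, the share that also had a 5′ UTR peak was 0.253% for 5′ UTRs of up to 100 nt, 1.12% for 101–200 nt, 4.16% for 201–400 nt, 12.1% for 401–800 nt and 28.4% above 800 nt. A longer 5′ UTR offers more positions for a summit, and the share per nucleotide was not tested. Of the 329 peaks, 168 (51.1%) reached across the start codon into the coding sequence. A coding or 3′ UTR summit was present in 247 of the 317 genes, and 70 genes (22.1%) had neither.

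**Figure D2:**
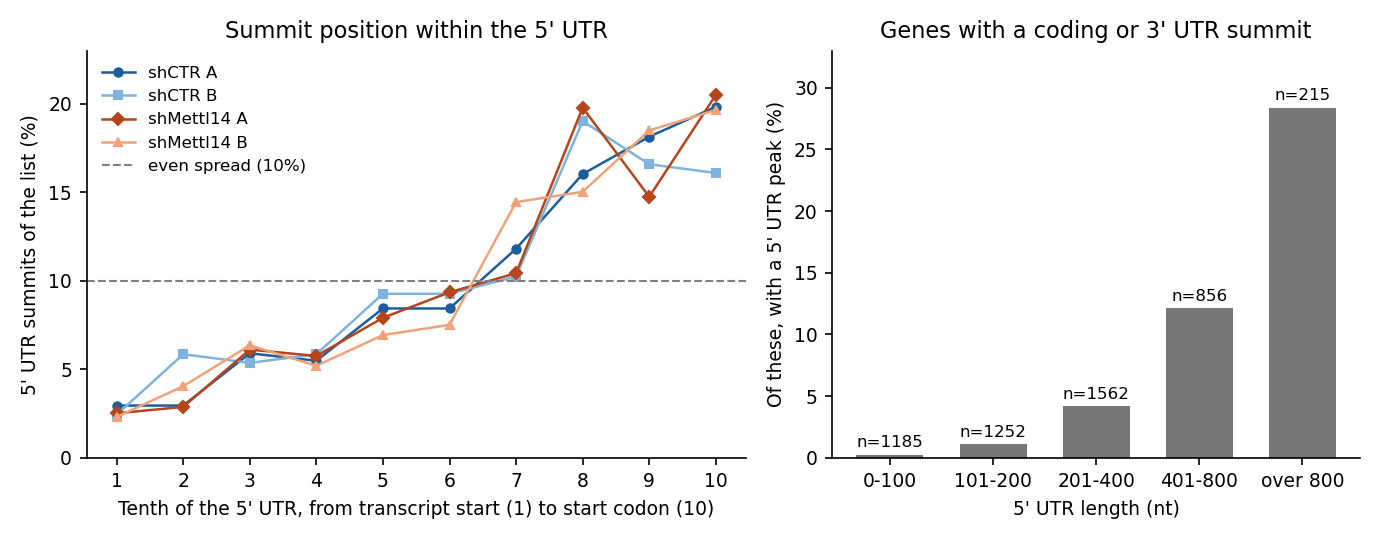
Left, percentage of each list's 5′ UTR summits in each of 10 equal parts of the 5′ UTR, from the transcript start (1) to the start codon (10), with the 10% of an even spread as a dashed line. Right, percentage of genes with a coding or 3′ UTR summit that also had a 5′ UTR peak, by 5′ UTR length (n, genes with a coding or 3′ UTR summit). The part at the transcript start held 2.31–2.95% of summits and that at the start codon 16.1–20.5%, and the share of genes rose from 0.253% to 28.4% over the length classes.

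The strength of a 5′ UTR peak was read from the fold enrichment that the authors' peak caller gave its summit (pulldown over local background). As lists differ in depth, each summit was also given its percentile among all summits of its list, with 100 the most enriched. The lists held 237 (shCTR A), 205 (shCTR B), 278 (shMettl14 A) and 173 (shMettl14 B) 5′ UTR summits, with median fold enrichments of 7.67, 7.55, 7.27 and 7.40, compared with 7.85, 8.03, 7.42 and 8.11 over all summits. Their share of all summits was 2.25% ± 0.173 in shCTR and 1.95% ± 0.116 in shMettl14 (SD, n = 2; exact permutation test, p = 0.333, the smallest possible). The median percentile of 5′ UTR summits was 47.8, 44.7, 48.1 and 41.8. Coding summits had medians of 52.1, 52.5, 51.6 and 52.1, so 5′ UTR summits ranked lower in 4 of 4 lists (difference, −6.49 ± 3.15 percentile points, exact sign-flip permutation test, p = 0.125). Against 3′ UTR summits the difference was −9.18 ± 3.53 points. The local background under 5′ UTR summits was higher than over all summits (medians of 1.46, 1.22, 1.21 and 0.857 fragments against 0.970, 0.937, 0.902 and 0.620), and the median pileups were 18, 18, 15.5 and 13 fragments against 16, 16, 14 and 13. The part of the higher background in the lower rank was not tested. Between shRNA groups the median percentile was 46.2 ± 2.22 in shCTR and 45.0 ± 4.43 in shMettl14 (n = 2; p = 1, exact permutation test).

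The same 5′ UTR peak was found again less often than a coding peak. A summit was present in all 4 lists for 96 peaks (29.2%), in 3 lists for 44, in 2 for 56 and in 1 for 133 (40.4%). Of coding regions 49.7%, of 3′ UTR regions 42.4%, of noncoding exon regions 31.9% and of intron regions 11.6% were in all 4 lists. Within a group, 65.5% of the 5′ UTR peaks of shCTR A were also in shCTR B, and 72.3% of those of shCTR B in shCTR A. The values were 53.3% for shMettl14 A and 80.5% for shMettl14 B. For coding regions they were 77.5%, 86.7%, 70.6% and 90.0%, and the 5′ UTR minus coding difference was −13.3 ± 3.32 points, negative in 4 of 4 lists (exact sign-flip permutation test, p = 0.125). Peaks found in 1 list were weak: their median percentile was 32.0, compared with 65.9 for those in all 4 lists, and 57 of them came from shMettl14 A, the longest list. Of the 69 peaks in genes with no coding or 3′ UTR summit, 18.8% were in all 4 lists, compared with 31.9% of the other 260. Because peak lists carry no strand, a peak over a gene on the opposite strand cannot be assigned: 55 of the 329 peaks (16.7%) lay on such a gene.

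**Figure D3:**
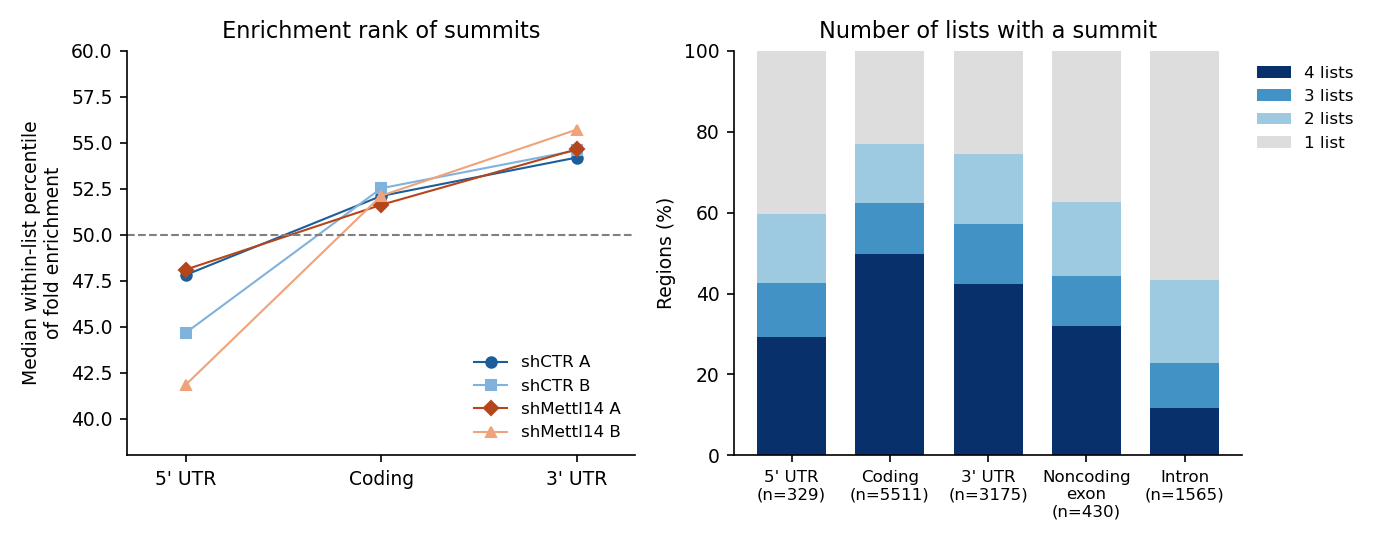
Left, median within-list percentile of fold enrichment of 5′ UTR, coding and 3′ UTR summits, with 1 line per list and the list median (50) dashed (axis from 38 to 60). Right, percentage of regions with a summit in 4, 3, 2 or 1 of the lists, by transcript part. The 5′ UTR medians (41.8–48.1) were the lowest of the 3 parts in every list, and 29.2% of 5′ UTR peaks were in all 4 lists.

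Among the peaks found in all 4 lists, the strongest belonged to genes of varied function. The value of a peak in a list is that of its strongest 5′ UTR summit there, and a merged peak can hold several. Over the 96 peaks in all 4 lists, these summits lay within a median range of 47 nt, and over more than 100 nt in 17 peaks. St3gal2 encodes a sialyltransferase, and its peak in exon 2 (chr8:110956659-110957971) had fold enrichments of 18.7 (shCTR A), 26.8 (shCTR B), 16.3 (shMettl14 A) and 24.6 (shMettl14 B), that is, percentiles of 95.8, 99.5, 95.5 and 99.0. The groups overlapped, and both B lists were above both A lists. Ddx6 encodes an RNA helicase of processing bodies, which hold translationally silent mRNA. Its values were 18.4, 17.8, 17.2 and 22.2 fold. The percentiles were higher in both shMettl14 lists (95.6 and 94.3 in shCTR, 96.6 and 98.2 in shMettl14). It had no coding summit, while its 3′ UTR had a summit in every list. Foxc1, a forkhead transcription factor, had 12.8, 26.6, 23.8 and 21.3 fold, with shCTR A the lowest. Fbf1, a protein of the centriole's distal appendages, had 14.9, 19.7, 20.2 and 15.9 fold and no coding or 3′ UTR summit in any list. Its strongest summits differed in place, at nt 436 and 460 of the transcript in shCTR A and shMettl14 A and at nt 180 and 175 in shCTR B and shMettl14 B, so the 4 values are not those of 1 site.
The other 6 of the 10 highest were Mgat1 (the enzyme that starts complex N-glycans), Tor1aip2 (an activator of the ATPase torsin), Zfp260 (a zinc finger protein), Zfyve1 (a lipid-binding protein of the endoplasmic reticulum), Tssc4 and Dhx32 (an RNA helicase of the DEAH family). Their percentiles lay between 81.9 and 99.7 in every list. The shRNA groups overlapped in Zfp260 and Tssc4. Percentiles were higher in both shMettl14 lists in Tor1aip2 (90.0 and 82.9 in shCTR, 97.2 and 98.7 in shMettl14) and Dhx32 (90.1 and 81.9, 93.6 and 95.9), and lower in Mgat1 (93.6 and 99.7, 91.3 and 87.7) and Zfyve1 (94.2 and 92.7, 87.9 and 91.7). Over the 96 peaks, ranks did not overlap in 16 that were higher (16.7%) and 14 that were lower in shMettl14 (14.6%), where 16.9% and 15.9% of regions of all transcript parts were separated in these directions. The Tssc4 peak lies on Trpm5, a gene of the opposite strand.

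Some genes held several 5′ UTR summits. Slit2, a secreted ligand of Robo receptors, had the most, with 15 summits over the 4 lists in 3 peaks of its 1886-nt 5′ UTR. The peak nearest to the start codon was in all 4 lists (percentiles of 21.9 and 21.4 in shCTR, 45.6 and 42.4 in shMettl14), with its strongest summit at nt 1429 in shCTR B and at nt 1117–1133 in the other lists. The other peaks were in 1 list of each shRNA. Abl1 (a tyrosine kinase), Tulp4 and Zrsr1 had 11 summits each, and Fam43a had 10. The Abl1 percentiles were 70.9, 82.7, 74.1 and 76.1, with the groups overlapping, as they did in Fam43a (51.7, 49.1, 76.1 and 38.7). In Tulp4 they did not overlap (69.1 and 74.6 in shCTR, 82.1 and 88.0 in shMettl14). Zrsr1, a splicing factor gene, lies within Commd1 on the opposite strand, so its 4 values (78.8, 91.9, 96.6 and 61.0) cannot be assigned to it alone. In Tulp4, Zrsr1 and Fam43a too the strongest summit moved by 151–347 nt between lists.

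To ask whether Mettl14 knockdown changed which 5′ UTR peaks were found, the peaks that had a 5′ UTR summit in both lists of 1 shRNA but none in the lists of the other were counted. In shCTR only there were 14 (4.26%), where 2.25% of regions of all transcript parts met this rule. In shMettl14 only there were 3 (0.912%), where 2.69% of all regions did. For presence in a single region, an exact permutation test of 2 lists against 2 cannot go below p = 0.333. The 14 peaks were of low rank, with a median percentile of 32.4. Counted by any peak interval over the region rather than a summit in the 5′ UTR, the numbers were 7 (2.13%) and 4 (1.22%), where 1.69% and 1.72% of all regions met the rule. At a −log10 q-value of at least 5 they were 8 of 284 (2.82%) and 1 (0.352%), against 2.96% and 2.46% of all regions under the same rule. When every list was trimmed to the length of the shortest, keeping its smallest p-values, they were 13 of 277 (4.69%) and 1 (0.361%), against 4.16% and 2.01%. The shCTR-only share was thus close to that of all regions in both cases. Leaving out a list loosens the rule, so that the counts can only rise. Without shCTR A, shCTR B, shMettl14 A or shMettl14 B, the shCTR-only share was 14.2% (42), 15.6% (47), 12.1% (33) or 5.73% (18), where all regions gave 7.69%, 12.4%, 8.41% and 3.91%. The shMettl14-only share was 5.07% (15), 3.99% (12), 6.62% (18) or 19.1% (60), where all regions gave 8.06%, 4.60%, 8.03% and 17.0%.
In 8 of the 14 shCTR-only peaks a shMettl14 interval still covered the region, with its summit outside the 5′ UTR. The 16 shCTR summits of these 8 lay 2–99 nt from the start codon (median summits of the peaks, 6–56 nt), and all 8 peaks reached across it. Among the peaks in all 4 lists, the strongest summits of both shMettl14 lists were often nearer to the start codon than both shCTR ones. In St3gal2 they were at nt 865 and 860 of the transcript against 835 and 819, and in Tssc4 at nt 189 and 183 against 163 and 157. Other peaks overlapped or went the other way, such as Ccnt1 (nt 285 and 301 against 315 and 334). The part of such offsets in the 8 peaks and in the shCTR-only count was not tested. Angptl2, a secreted angiopoietin-like protein, had the highest mean percentile of the 14 (8.64 fold in shCTR A and 8.35 fold in shCTR B, percentiles of 58.5 and 53.2), followed by Fam198b, a Golgi kinase (8.46 and 8.27 fold), and Sfswap, a splicing regulator (10.2 and 7.06 fold, percentiles of 69.8 and 38.7). The motifs printed above for Angptl2 and Fam198b lie at the start codon itself, and both peaks lie on genes of the opposite strand (Ralgps1 and Gm36569). Insyn1, Sfswap and Spry2 (an inhibitor of receptor tyrosine kinase signalling) were of the same kind, with median summits 17, 27 and 17 nt before the start codon.
The other 6 had no shMettl14 interval of any kind, and their 12 summits lay 40–774 nt from the start codon (median summits of the peaks, 99–745 nt). Foxj2, a forkhead factor with no other exonic summit, had the highest mean percentile of these (8.41 fold in shCTR A and 5.40 fold in shCTR B, percentiles of 56.4 and 14.4), and lies on the antisense gene Gm26826. The remaining 5, which were looked up after their values were seen, were Bcl2 (an inhibitor of apoptosis), Sema3e, Mecom, Irf2bpl and Dusp4 (a MAP kinase phosphatase), with percentiles from 0.578 to 53.2. In Bcl2 the shCTR-only peak had its median summit 745 nt before the start codon, and a separate peak with its median summit 87 nt before it was in all 4 lists (percentiles of 80.9, 81.3, 84.3 and 70.9).
Of the 3 shMettl14-only peaks, the one in Klf4, a transcription factor that drives the synthetic state of smooth muscle, was the strongest. It had 7.34 fold in shMettl14 A (11 fragments over a background of 0.636) and 6.73 fold in shMettl14 B (12 fragments over 0.930), at percentiles of 48.8 and 33.9, and no shCTR interval. The same mRNA had coding and 3′ UTR summits in all 4 lists. Robo1, a receptor for Slit ligands, had 6.20 and 5.89 fold from pileups of 8 and 7 fragments and no shCTR interval. Rdh10, a retinol dehydrogenase, had 5.26 and 4.64 fold at summits far apart (nt 185 and 23 of the transcript), and shCTR intervals lay over it in both lists.

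**Figure D4:**
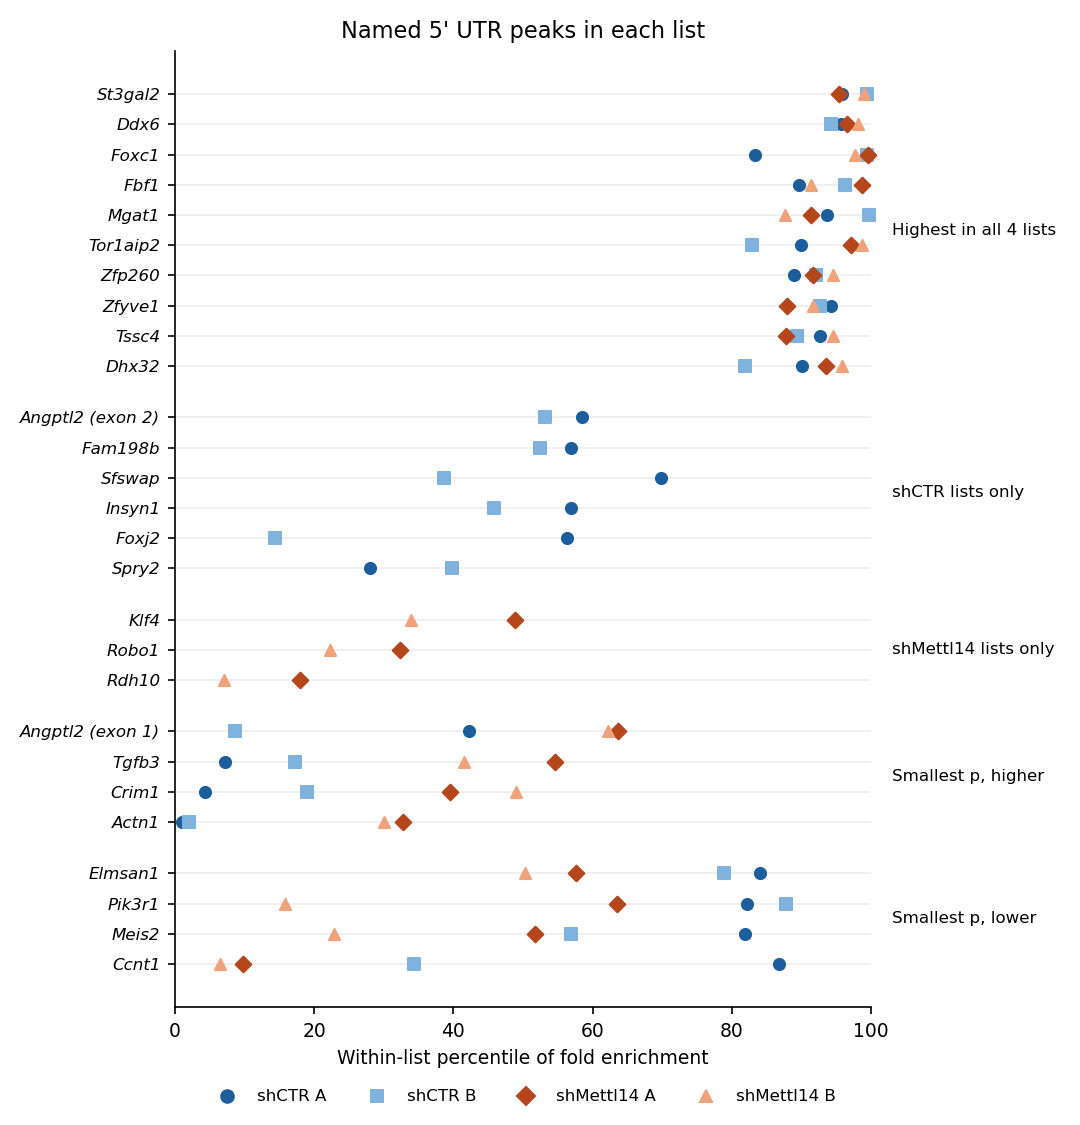
Within-list percentile of fold enrichment of named 5′ UTR peaks, with 1 point per list in which the peak had a 5′ UTR summit. The 10 highest peaks lie between 81.9 and 99.7 in all 4 lists, while the peaks found under 1 shRNA lie at or below 69.8.

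Rank within the list was then compared between shRNAs for the regions with a summit in all 4 lists, 96 of which were 5′ UTR peaks (limma on normal scores of the rank, that is, the rank turned into a standard normal value, with Benjamini-Hochberg adjustment over all 4852 regions). No 5′ UTR peak had an adjusted p under 0.05 (smallest, 0.699), nor did any region of the series (0%). Fisher's exact test on the recovered fragment pileups had 0 of 96 even at an unadjusted p under 0.05. It set summit pileups against rounded local backgrounds (5′ UTR medians of 0.857–1.46 fragments over the lists). Counts this small can hardly separate the groups, so its lack of calls decides nothing. With limma, 6 of 96 had an unadjusted p under 0.05, 4 higher and 2 lower in shMettl14, where 2.49% and 2.66% of all regions were higher and lower. Without shCTR B the 6 became 10, and with ranks of −log10 p there were 3. Scores were lower in shMettl14 for 56 of the 96 (58.3%), with a median change of −0.07, compared with 49.7% and a median of 0.00 over all regions. Without shCTR B, 47 of the 96 were lower.
The 4 with the smallest p on the higher side were Actn1 (an actin cross-linking protein), Tgfb3 (a TGF-β ligand), Crim1 (a BMP-binding membrane protein) and the exon 1 peak of Angptl2. Actn1 had 3.51 and 3.96 fold in shCTR and 6.21 and 6.48 fold in shMettl14 (percentiles of 0.986, 2.08, 32.8 and 30.1), a score change of 1.63 ± 0.50 (SE; limma unadjusted p = 0.00321, adjusted p = 0.699). Its strongest summits lay at nt 148, 221, 129 and 108 of the transcript. Its pileups were 40, 56, 36 and 21 fragments and its backgrounds 10.7, 13.4, 4.96 and 2.40 fragments, so that the background was lower in both shMettl14 lists. With −log10 p ranked in place of fold enrichment, its change was 0.29. Crim1 moved with its background in the same way (10.2, 7.68, 5.71 and 3.62 fragments at pileups of 46, 48, 44 and 36). Tgfb3 had 4.53 and 5.55 fold in shCTR and 7.80 and 7.38 in shMettl14, and the Angptl2 peak had 7.26 and 4.80 fold against 8.67 and 9.34. The changes of Tgfb3, Crim1 and Angptl2 (each 1.14) were no longer past an unadjusted p of 0.05 in several fits without 1 list. These were 0.83 for Tgfb3 without shCTR A, 1.11 without shMettl14 A and 1.17 without shMettl14 B. For Crim1 they were 0.68 without shCTR A and 0.88 without shMettl14 B, and for Angptl2 they were 0.62 without shCTR B, 1.27 without shMettl14 A and 1.01 without shMettl14 B. With ranks of −log10 p the changes were 0.80, 0.55 and 0.84, none of them past it. The part of the background in these ranks was not tested. The Actn1, Tgfb3 and Angptl2 peaks lie on genes of the opposite strand.
On the lower side were Ccnt1 (the cyclin of the elongation factor P-TEFb), Pik3r1 (the regulatory subunit of PI 3-kinase), Meis2 (a homeobox factor) and Elmsan1 (a histone deacetylase complex protein). Ccnt1 had 13.8 and 6.74 fold in shCTR and 4.61 and 4.58 fold in shMettl14 (change −1.75 ± 0.54, limma unadjusted p = 0.00355, adjusted p = 0.699), from pileups of 14, 7, 5 and 5 fragments, and its peak lies on a gene of the opposite strand. Its change was −0.97 without shCTR A, no longer past an unadjusted p of 0.05, and −2.53 without shCTR B. Pik3r1 had 12.6 and 14.6 fold against 8.64 and 5.46 (change −1.50 ± 0.52, limma unadjusted p = 0.00819, adjusted p = 0.764). The strongest summits lay at nt 596 and 577 of the transcript in shCTR and at nt 370 and 358 in shMettl14, so the values compare different sites of 1 merged peak. The change was −1.28 without shCTR B and −0.99 without shMettl14 B, in both cases not past that threshold. The groups did not overlap in any of these 8 peaks, which were picked for small p. Meis2 and Elmsan1 had unadjusted limma p-values of 0.0692 and 0.0711, and of these Meis2 was past 0.05 without shCTR B (change −1.32) and Elmsan1 with ranks of −log10 p (change −0.99).

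**Figure D5:**
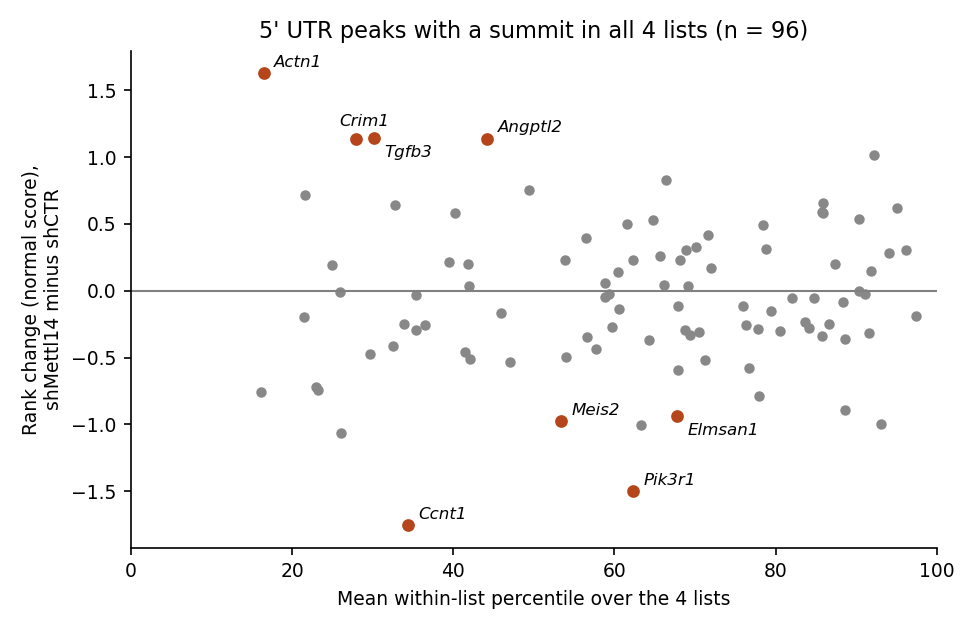
Change of the normal score of rank (shMettl14 minus shCTR) against the mean percentile over the 4 lists, for the 96 5′ UTR peaks with a summit in every list. The 8 peaks with the smallest p are in red, and no peak passed the adjusted threshold.

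Gene lists that relate to 5′ UTR methylation or to smooth muscle were counted by gene. Over all coding transcripts, 5504 genes had a summit in some part of the mRNA and 317 of these (5.76%) had a 5′ UTR peak, 95 of them in all 4 lists. No list was tested. Heat shock genes, the best-known case of 5′ UTR methylation under stress, had mRNA summits in 6 of 15 genes (Hspa1a, Hspa1b, Hspa5, Hsp90ab1, Dnajb1 and Bag3) and none in the 5′ UTR. The integrated stress response list had summits in 9 of 12 genes and translation initiation factors in 8 of 27, again none in the 5′ UTR.
Of 26 immediate early and Krüppel-like factors, 23 had an mRNA summit and 6 a 5′ UTR peak (Fosb, Fosl2, Jun, Jund, Myc and Klf4). Only the Jun peak that reaches the start codon was in all 4 lists, at 15.1, 11.7, 12.1 and 10.5 fold (percentiles of 90.1, 77.0, 85.3 and 69.9), and both Jun peaks lie on the antisense gene Junos. Fosb had a peak at 7.85 (shCTR A), 6.40 (shCTR B) and 6.20 fold (shMettl14 A), with its GGACT 3 nt from the median summit. Myc, Jund and both Fosl2 peaks were in 1 list each, at or below a percentile of 25.2, and the Jund peak lies on an antisense gene.
In insulin and growth factor signalling, 14 of 18 genes had an mRNA summit, and Irs1 (the adaptor of the insulin receptor) and Fgfr1 had 5′ UTR peaks in all 4 lists. The Irs1 values were 10.8 (shCTR A), 9.11 (shCTR B), 13.3 (shMettl14 A) and 5.44 fold (shMettl14 B), so that the shMettl14 lists held both the highest and the lowest. Fgfr1 had 8.90, 6.83, 8.30 and 4.90 fold. In the cell cycle list, 5 of 14 genes had an mRNA summit. Cdkn2c, an inhibitor of CDK4 and CDK6, had a peak in all 4 lists (5.53, 9.06, 6.33 and 5.99 fold) and no coding or 3′ UTR summit.
Genes of the m6A and m6Am enzymes and readers had mRNA summits in 13 of 21 cases and 5′ UTR peaks in Rbm15, a writer subunit (10.3 fold in shCTR A, 6.82 in shMettl14 A and 7.94 in shMettl14 B), and in Alkbh5, an m6A eraser (4.07 fold in shMettl14 B). Contractile smooth muscle genes had mRNA summits in 6 of 16 and no 5′ UTR peak. Synthetic and matrix genes had 16 of 20, with 1 5′ UTR peak in Fbln2 (6.36 fold in shCTR B and 6.98 fold in shMettl14 B). Endothelial markers had 3 of 7, with a Cdh5 peak in shMettl14 A at 8.17 fold that lies on an antisense gene, leukocyte markers had 1 of 6, and cytosolic ribosomal proteins had 2 of 80, with no 5′ UTR peak in the last pair.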

How the data were processed

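The 8 samples were 4 m6A pulldowns and their 4 inputs, grouped by title. According to the labels and methods, the authors aligned reads to mm10 with STAR, kept unique reads with SAMtools and called peaks per pulldown against its input with MACS2 (no versions or options given). Each deposited list gives a fold enrichment (a ratio with 1 added to each side) and −log10 p and −log10 q of each summit. The 2 deposited interval files of replicate overlaps hold no values and were only counted against: 173 of 329 peaks lay over the shCTR file, 166 over the shMettl14 file and 143 over both. Pileup and background were solved from fold and p (tolerance 2.00e-04, recovered for 100% of summits). Pileups of 13 to 18 fragments at the median 5′ UTR summit limit precision, and Fisher's exact test on pileups takes account of counting error only. Transcripts were those of GENCODE M21 (21495 genes), and the 48 sequence windows matched GRCm38 with 0 differences.

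Exact permutation tests used lists as units. limma 3.58.1 (R 4.3.3) tested ranks over all regions present in 4 lists, and Fisher's exact test, which the study's methods name, was run on recovered pileups as an alternative. The study's own test of its peaks was not repeated. Other steps used Python 3.11.15 and scipy 1.17.1, and were tested on simulated data. Alternatives covered peak threshold, list size, summit or midpoint, transcript choice, overlap, window, measure, pairing and leaving out each list. Named peaks were the 10 highest by mean percentile of those in all lists, the 6 highest found under 1 shRNA in each direction (3 exist for shMettl14), the 4 smallest p in each direction, the 5 genes with most summits, and members of gene lists. The regions, rules and lists were chosen with earlier results of these data known.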

Additional observations from a re-analysis of the deposited data

How the results depend on the processing

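The lower rank of 5′ UTR against coding summits, the excess of summits near the start codon and of GGACT over coding summits, and the lower DRACH share kept their direction in every alternative run for them, and the mean 5′ UTR share of summits stayed lower in shMettl14 in all of its alternatives (−0.418 to −0.173 points leaving out 1 list). The lists of that share overlapped (exact p = 0.667 against 0.333) with distinct intervals, at −log10 q of at least 5 and with equal numbers of top peaks. All alternatives for the excess near the start codon, and the rank with equal list sizes, were chosen after seeing the data. The difference between shRNAs in summits close to the transcript start turned from −0.780 to 0.271 points with a 50-nt window, and leaving out 1 list gave −2.67 to 1.11. The shCTR-only count (14) became 8 at −log10 q of at least 5 and 7 by any interval, and the shMettl14-only count (3) became 1 at that threshold and 1 with equal numbers of top peaks. Leaving out 1 list gave 18 to 47 and 12 to 60. The count at unadjusted p under 0.05 (6) became 3 with ranks of −log10 p and 0 with Fisher's exact test on pileups, and 4 to 10 leaving out 1 list, while the adjusted count was 0 in all. The cause of these moves was not tested, except that leaving out a list loosens the rule for presence. Letters A and B recur in both groups, but deviations of same-lettered lists correlated at 0.08 over 4852 regions, under the 0.1 set for pairing, and with 2 pairs the lists were treated as unpaired. What the letters share was not given in the sources used here. With the letter as replicate block, limma again gave 0 adjusted and 6 unadjusted calls, the 5′ UTR share differed by −0.295 points (−0.0911 within A, −0.500 within B) and the share close to the transcript start by −0.780 points. Of 108 rank changes of the 18 peaks named for rank under alternatives, 98 kept their sign. With 2 lists per shRNA and pileups of 13 to 18 fragments, single-peak differences were measured with low precision.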
